A study of Caenorhabditis elegans with 16 samples.

Results

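RNA from whole animals was compared between the *pals-25(jy111)* mutants and wild type (WT) of *Caenorhabditis elegans*, 8 of the 16 libraries of the series, taken by the genotype in their labels as 4 libraries against 4. The 4 libraries of *pals-22(jy3) pals-25(jy9)* animals, which carry loss-of-function alleles of both genes and were likewise grown for 44 h, serve below as another comparison. Both groups were hatched into starved L1 larvae, fed *E. coli* OP50-1 and collected at the L4 stage after 44 h at 20°C, and neither received a pathogen or a drug. WT is the strain N2. The mutants carry Q293*, a stop codon that truncates PALS-25. The study reports it as a gain-of-function allele whose protein no longer associates with PALS-22. The mutants descend from 1 selected CRISPR/Cas9 line that was crossed away from its marker background and backcrossed, so the group is 1 line. Each library pools the many animals of a plate collection, the labels call the 4 libraries of a genotype biological replicates, and in whole animals fewer cells of a type cannot be told apart from less RNA per cell.

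PALS-22 and PALS-25 belong to the *pals* family and bind each other. PALS-22 holds back, and PALS-25 promotes, an RNA program that infections with microsporidia and the Orsay virus also turn on, the intracellular pathogen response (IPR), together with genes of the oomycete recognition response (ORR), in which the epidermis makes chitinase-like proteins. Ubiquitin ligases built on cullins and genes of RNA silencing are known parts of these defenses. Many of the genes that change most in this mutant belong to those lists. The account here turns on what lies outside them, which are genes raised by a log2 fold change under 2, genes that were lower in the mutants, and other functional classes.

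The allele was made with a guide and a repair template whose sequences, from the supplementary oligonucleotide list of the study, are shown because they define the allele that all values concern. In the guide, capitals mark the CAA codon that is changed. In the template, capitals mark the TAA stop codon and the other bases that differ from the guide. Both are written 5′ to 3′ and target *pals-25* on chromosome III.

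crRNA: cCAAaaagatcatgtcagtcagg
repair template: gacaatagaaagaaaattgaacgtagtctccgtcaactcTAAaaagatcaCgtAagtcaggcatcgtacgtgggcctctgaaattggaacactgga

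The 23 bases listed for the crRNA align to the template from template base 39 with 3 differences, C2T, T13C and C16A. Positions are counted from 1 at the 5′ end of the listed sequence. The first difference turns the CAA codon into TAA.

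Counts on genes summed to between 14028579 and 26621479 per library in WT and between 22735103 and 30574379 in the mutants. Levels below are CPM, counts relative to the library's total, scaled between libraries by TMM factors, and libraries are listed in the order of their replicate numbers 1 to 4. A level is not corrected for gene length, so levels are compared between libraries and not between genes. A gene was called higher or lower at an adjusted p under 0.05 in edgeR's quasi-likelihood test over the 14671 genes that reached 0.5 CPM in 4 or more of the 8 libraries. Expression of *pals-25* was 2.45, 2.78, 2.77 and 2.38 CPM in WT and 5.47, 6.56, 5.61 and 7.28 CPM in the mutants (log2 fold change 1.26, SE 0.15, edgeR adjusted p = 0.00214), so the mutated gene's RNA was higher in every mutant library. These values are of RNA only, and the study's Western blots of other cultures found less truncated PALS-25 protein than full-length protein. For *pals-22*, which shares an operon with *pals-25*, the values were 3.89, 5.14, 4.33 and 3.59 CPM and 8.56, 9.55, 10.1 and 9.87 CPM (log2 fold change 1.17, SE 0.14, edgeR adjusted p = 0.00269).

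More genes were higher than lower in the mutants. Among the genes tested, 342 (2.33%) were higher and 207 (1.41%) lower. Of those higher, 171 had a log2 fold change above 2 and 171 one under 2. Of the latter, 101 lay under 1, and 158 were on neither the IPR nor the ORR list. The lowered genes moved less, since 12 fell beyond -2, 55 between -2 and -1 and 140 by less than 1. Of them 0 were on the IPR list, 4 on the ORR list and 203 on neither. All 342 higher and all 207 lower genes kept their direction in each of the 4 pairs of same-numbered libraries and had groups that did not overlap. Across all genes tested, 5.43% had mutant libraries above every WT library and 5.35% had them below. The weakly raised genes had a median WT level of 11.3 CPM and the lowered genes 34.8 CPM, against 12.7 CPM over all genes tested. Chromosome V carried 19.5% of the genes tested, 32.5% of all those higher, 22.8% of those raised by less than 2 and 26.6% of those lowered.

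Same-numbered libraries of both genotypes deviated together, clearly for numbers 1 and 2 and less so for 3 and 4. The test was therefore also run with the replicate number as a block. The block raised the counts to 758 higher (5.17%) and 676 lower (4.61%), with all 342 higher and 206 of the 207 lower genes among them. A further 416 higher and 470 lower genes were called with the block alone. Leaving out single libraries cost many of the weak calls. The count of lowered genes was 132, 119, 93 and 109 without WT library 1, 2, 3 or 4 and 81 without mutant library 3. That of genes raised by less than 2 was 112, 100, 96 and 85 without WT library 1, 2, 3 or 4 and 88 without mutant library 3, and it was lower by 60 genes without mutant library 4. Beyond -2, 7 genes were lower without WT library 1 or 3 or mutant library 2, and 5 without mutant library 3. Each gene below is therefore given with the libraries, if any, without which its adjusted p passed 0.05. Counts in lists below are read against the shares over all genes tested, 2.33% higher and 1.41% lower, or 5.17% and 4.61% with the block.

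**Figure D1:**
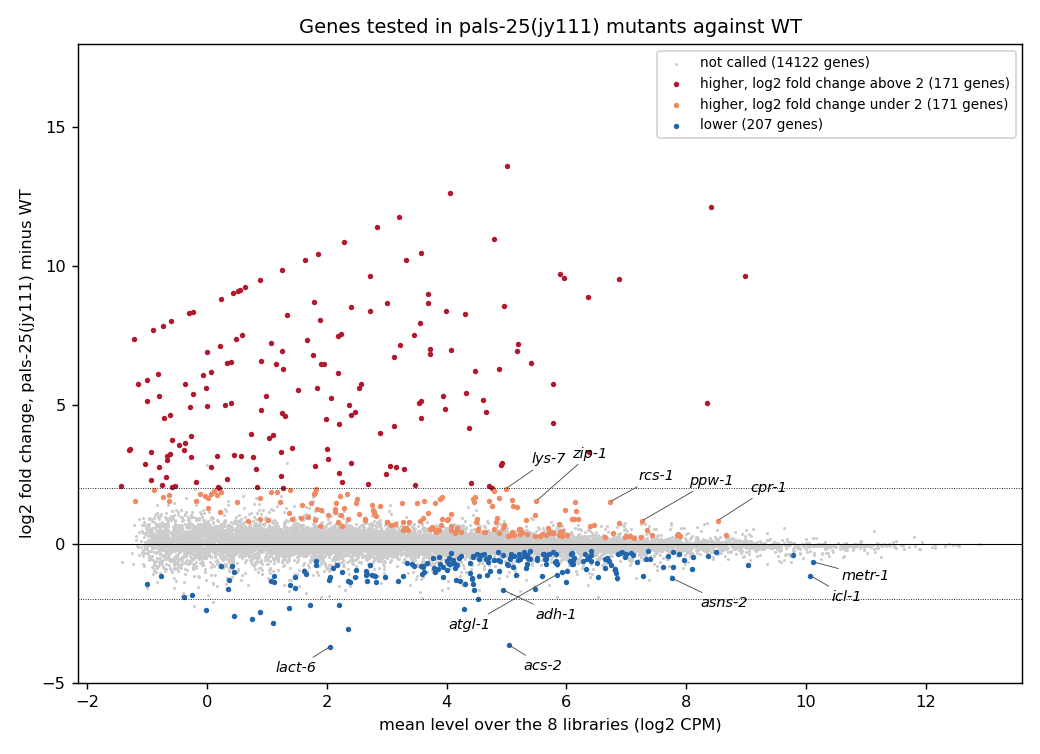
Each point is 1 of 14671 genes, with its mean level over the 8 libraries on a log2 CPM axis and its log2 fold change, mutants minus WT, on the vertical axis. Raised genes reach far above the dotted line at 2, while the 207 lowered genes (blue) mostly lie between 0 and -2 and, like the weakly raised genes (orange), include genes with many reads.

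Several genes of RNA silencing were raised, mostly by less than 2 on the log2 scale. Of 54 tested genes on a list of RNAi and small RNA genes, 7 rose and 0 fell, 14 and 1 with the replicate block, and the block's raised genes numbered 7, 14, 8 and 19 without pair 1, 2, 3 or 4. The median log2 fold change was 0.15 against 0.02 over all genes tested. *sid-5*, needed for the transport of silencing RNA between cells, had 6.12, 6.82, 5.77 and 6.45 CPM in WT and 18.2, 17.98, 17.5 and 19.3 CPM in the mutants (log2 fold change 1.54, SE 0.09, edgeR adjusted p = 2.90e-05). *rde-1*, the Argonaute protein that receives the short RNAs cut from foreign double-stranded RNA, had 49.0, 48.2, 47.5 and 46.8 CPM in WT and 86.0, 92.0, 81.6 and 93.3 CPM in the mutants (log2 fold change 0.89, SE 0.06, edgeR adjusted p = 5.56e-05). *drh-1*, a RIG-I-like helicase that senses viral RNA, had 46.5, 43.9, 43.4 and 45.3 CPM and 72.5, 69.7, 70.3 and 78.8 CPM (log2 fold change 0.71, SE 0.06, edgeR adjusted p = 0.000195). In these 3 genes the 4 libraries of each genotype lay close together and far from the other genotype. *ppw-1*, another Argonaute, had 117, 105, 114 and 106 CPM in WT and 225, 183, 201 and 173 CPM in the mutants (log2 fold change 0.83, SE 0.09, edgeR adjusted p = 0.00149), with mutant library 1 the highest. The Tudor domain gene *ekl-1*, which acts in small RNA pathways but was chosen after its values were seen, had 45.3, 42.1, 44.97 and 44.2 CPM and 102, 88.9, 97.6 and 109 CPM (log2 fold change 1.17, SE 0.07, edgeR adjusted p = 1.88e-05).

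The list also holds a pair of genes above a log2 fold change of 2. *vsra-1*, an Argonaute gene on the ORR list, had 14.5, 20.8, 19.4 and 19.7 CPM in WT and 648, 602, 659 and 625 CPM in the mutants (log2 fold change 5.09, SE 0.13, edgeR adjusted p = 1.47e-07), and *rrf-2*, an RNA-dependent RNA polymerase gene on neither list, had 6.19, 5.14, 4.45 and 4.59 CPM and 106, 97.1, 104 and 109.6 CPM (log2 fold change 4.37, SE 0.11, edgeR adjusted p = 1.71e-07). The summed level of the list was 2666 to 3081 CPM in WT libraries and 3711 to 4458 CPM in mutant libraries. Of these sums *vsra-1* alone made up 14.5 to 20.8 CPM in WT and 602 to 659 CPM in the mutants. *rde-12*, a helicase gene of the RNAi pathway, had 191, 209.5, 221 and 205 CPM in WT and 246, 258, 249.9 and 267 CPM in the mutants (log2 fold change 0.31, SE 0.06, edgeR adjusted p = 0.0247), and its call was lost without WT library 1, 2, 3 or 4 or mutant library 2, 3 or 4 (adjusted p between 0.0505 and 0.0909). With the replicate block, *sago-2* (log2 fold change 0.60, edgeR adjusted p = 0.00188), *drh-3* (0.27, 0.0206) and the germline Argonautes *wago-4* (0.38, 0.0456) and *hrde-1* (0.41, 0.0288) were also higher, and *sago-1* was lower (-0.33, 0.0266). Without the block their adjusted p-values were 0.0862, 0.226, 0.666, 0.617 and 0.0654 in that order. The calls of *sid-5*, *rde-1*, *drh-1*, *ppw-1*, *ekl-1*, *vsra-1* and *rrf-2* held without any 1 library.

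Several subunits of the cullin ubiquitin ligase rose. Of 20 tested *skr* and cullin genes 6 rose, all by less than 2, and 0 fell, with the same counts under the replicate block and a median of 0.13. The RING subunit gene *rcs-1* had 53.0, 56.9, 54.4 and 55.6 CPM in WT and 149, 167, 147 and 164 CPM in the mutants (log2 fold change 1.52, SE 0.06, edgeR adjusted p = 3.84e-06). The cullin *cul-6* had 5.25, 8.26, 6.73 and 8.57 CPM and 21.6, 24.99, 22.7 and 23.3 CPM (log2 fold change 1.68, SE 0.16, edgeR adjusted p = 0.000558). Among the Skp1-related adaptors, *skr-4* had 12.95, 15.8, 15.2 and 16.3 CPM in WT and 32.8, 36.6, 41.5 and 45.8 CPM in the mutants (log2 fold change 1.38, SE 0.12, edgeR adjusted p = 0.000335), and *skr-3* had 84.0, 90.5, 92.0 and 85.9 CPM and 129.8, 165, 138 and 162 CPM (log2 fold change 0.76, SE 0.09, edgeR adjusted p = 0.00189). Mutant libraries of all 4 genes lay above every WT library by a wide gap. *rbx-1*, the RING subunit shared by most cullin ligases, rose less, from 43.5, 44.9, 46.5 and 46.1 CPM to 61.8, 57.7, 57.4 and 60.9 CPM (log2 fold change 0.40, SE 0.05, edgeR adjusted p = 0.00402). The weakly expressed *skr-5* had 0.160 to 0.288 CPM in WT and 0.535 to 0.890 CPM in the mutants (log2 fold change 1.56, SE 0.28, edgeR adjusted p = 0.0201), and was not called without WT library 2, 3 or 4 or mutant library 3 (adjusted p between 0.0523 and 0.0766). *cul-6* and *skr-3* are on the ORR list and *skr-4* and *skr-5* on the IPR list, while *rcs-1* and *rbx-1* are on neither.

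Other genes of ubiquitin transfer, named after their values were seen, moved in both directions. The BTB domain gene *btb-14* had 20.002, 21.5, 20.6 and 19.8 CPM in WT and 50.4, 52.1, 51.5 and 52.3 CPM in the mutants (log2 fold change 1.33, SE 0.06, edgeR adjusted p = 3.45e-06), the tightest separation among these genes. *bath-36*, which encodes a MATH and BTB domain protein of the kind that brings substrates to a cullin, had 2.30, 1.03, 1.28 and 1.64 CPM and 5.19, 4.91, 5.49 and 5.65 CPM (log2 fold change 1.79, SE 0.24, edgeR adjusted p = 0.00439). *ubc-12*, the conjugating enzyme for NEDD8, the tag that activates cullins, had 43.2, 42.4, 49.8 and 43.1 CPM and 54.9, 54.5, 56.1 and 59.0 CPM (log2 fold change 0.33, SE 0.06, edgeR adjusted p = 0.0227), lost without WT library 1, 2 or 4 or mutant library 3 or 4 (adjusted p between 0.0671 and 0.0901). Lower were *ubc-8*, from 12.95, 12.6, 15.2 and 12.5 CPM to 7.73, 9.06, 8.16 and 7.20 CPM (log2 fold change -0.72, SE 0.11, edgeR adjusted p = 0.0101), and the F-box gene *fbxl-1*, from 49.0, 61.3, 53.6 and 53.8 CPM to 30.6, 40.2, 33.6 and 42.2 CPM (log2 fold change -0.57, SE 0.12, edgeR adjusted p = 0.0367), the latter lost without WT library 2, 3 or 4 or mutant library 1 or 3 (adjusted p between 0.0621 and 0.132). Of 31 proteasome subunits 0 were higher and 0 lower in edgeR, with and without the block, and also 0 and 0 at an unadjusted p under 0.05. DESeq2 called 0 higher and 0 lower.

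**Figure D2:**
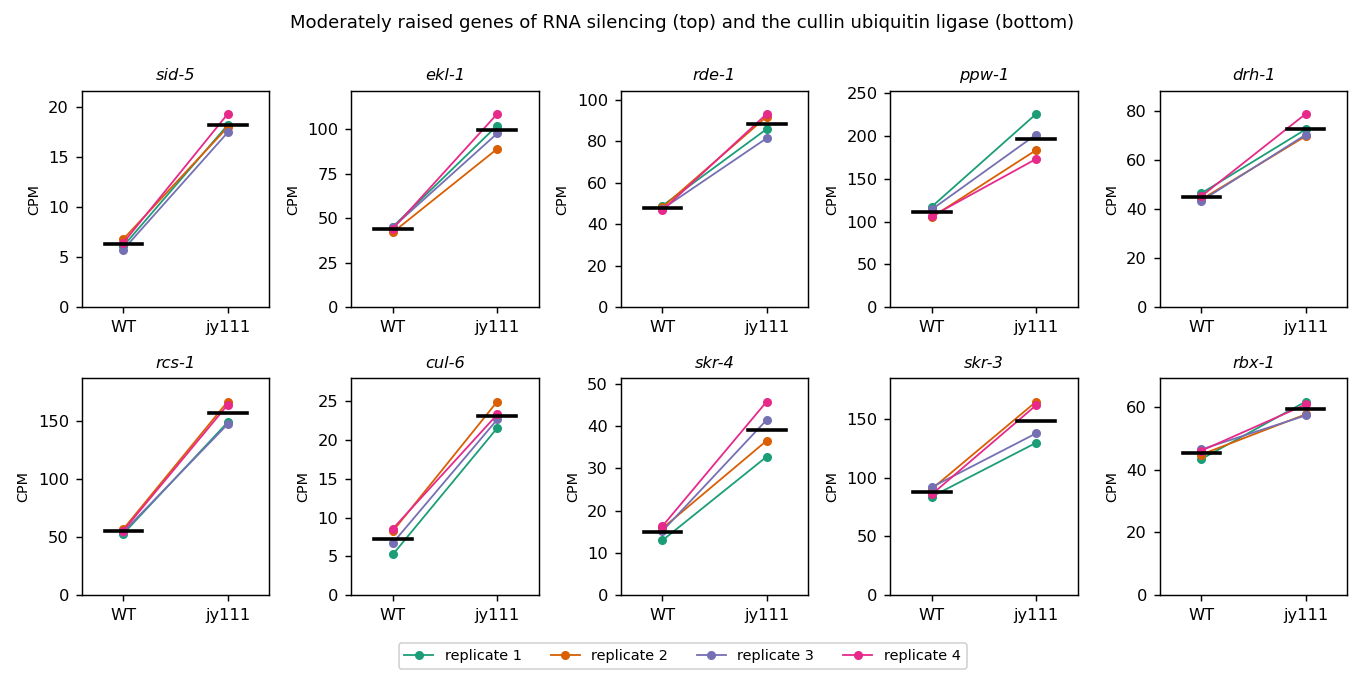
Levels in CPM, on axes that start at 0, of 5 RNA silencing genes (top) and 5 cullin ligase genes (bottom) in the 4 WT and 4 mutant (jy111) libraries. Lines join libraries of the same replicate number and black bars are group means. Every gene rose in all 4 pairs, and no mutant library overlaps a WT library, as was true of all 342 genes called higher.

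Regulators and immune effectors were among the weakly raised genes. *zip-1*, a bZIP transcription factor that acts in the IPR, had 21.7, 23.5, 26.2 and 21.1 CPM in WT and 68.0, 63.3, 68.5 and 69.2 CPM in the mutants (log2 fold change 1.54, SE 0.08, edgeR adjusted p = 9.07e-06). A second bZIP factor, *cebp-1*, rose from 35.1, 27.5, 30.7 and 28.6 CPM to 46.5, 43.3, 41.1 and 44.4 CPM (log2 fold change 0.53, SE 0.09, edgeR adjusted p = 0.0112), and of 22 tested bZIP genes these 2 were the genes called higher. *lys-7*, a lysozyme induced by several bacterial infections, had 10.9, 15.6, 11.7 and 12.9 CPM in WT and 63.4, 33.96, 65.8 and 39.99 CPM in the mutants (log2 fold change 1.99, SE 0.24, edgeR adjusted p = 0.00242), and mutant libraries 1 and 3 were well above libraries 2 and 4. *ced-1*, the receptor by which cells engulf dying neighbors, had 41.2, 55.7, 51.2 and 46.8 CPM and 76.1, 91.3, 82.4 and 112 CPM (log2 fold change 0.89, SE 0.14, edgeR adjusted p = 0.00848), highest in mutant library 4. The insulin-like peptide gene *ins-7* had 0.360, 0.267, 0.762 and 0.606 CPM and 1.81, 1.56, 2.36 and 1.71 CPM (log2 fold change 1.88, SE 0.33, edgeR adjusted p = 0.0161), with its call lost without WT library 4 or mutant library 3 (adjusted p between 0.0503 and 0.0605). *zip-1*, *cebp-1*, *lys-7* and *ced-1* kept theirs without any 1 library. Weakly expressed genes without a known role were raised by nearly as much as *lys-7*. *C04G6.6* had 2.37, 1.14, 1.403 and 0.909 CPM in WT and 5.31, 5.18, 5.77 and 6.17 CPM in the mutants (log2 fold change 1.98, SE 0.28, edgeR adjusted p = 0.00561), and *F18E9.1* had 1.01, 1.14, 1.28 and 0.865 CPM and 3.91, 4.86, 5.11 and 2.59 CPM (log2 fold change 1.93, SE 0.26, edgeR adjusted p = 0.00439).

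C-type lectin genes (*clec*), many of which respond to infection, went in both directions. Of 110 tested, 13 (11.8%) rose and 4 (3.64%) fell, with a median of 0.09, and the block gave 25 and 10. When 1 library was left out, 9 to 14 rose and 0 to 4 fell. Those raised by less than 2 include *clec-10*, at 28.1, 40.6, 44.5 and 37.5 CPM in WT and 78.1, 93.2, 92.5 and 89.8 CPM in the mutants (log2 fold change 1.23, SE 0.14, edgeR adjusted p = 0.00149), *clec-26* at 0.723 to 1.04 CPM and 2.19 to 3.88 CPM (log2 fold change 1.88, SE 0.24, edgeR adjusted p = 0.00342), and *clec-41* at 41.2 to 59.4 CPM and 89.1 to 114 CPM (log2 fold change 0.90, SE 0.14, edgeR adjusted p = 0.00867). The lowered lectins are others of the family. *clec-218* had 46.5, 45.3, 59.0 and 57.2 CPM in WT and 23.9, 25.8, 29.7 and 34.5 CPM in the mutants (log2 fold change -0.87, SE 0.13, edgeR adjusted p = 0.00854), and its call was lost without WT library 3 (adjusted p = 0.0505). *clec-247* had 5.11, 2.86, 4.01 and 5.37 CPM and 1.65, 0.669, 0.697 and 0.358 CPM (log2 fold change -2.32, SE 0.45, edgeR adjusted p = 0.0266), lost without WT library 1, 3 or 4 or mutant library 2 or 3 (adjusted p between 0.0643 and 0.109).

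Genes with many reads rose by small amounts. The 6 best expressed among those raised by less than 1 were *cpr-1*, *C28H8.3*, *mars-1*, *qars-1*, *nmt-1* and *rde-12*. *C28H8.3* had 369, 355, 367 and 347 CPM in WT and 473, 437, 449.9 and 446 CPM in the mutants (log2 fold change 0.33, SE 0.05, edgeR adjusted p = 0.00822), and *nmt-1*, the enzyme that attaches myristate to proteins, had 155, 153, 155 and 149 CPM and 195, 187, 189 and 196 CPM (log2 fold change 0.33, SE 0.04, edgeR adjusted p = 0.00476). These narrow differences exceeded the spread within either genotype. *cpr-1*, a cathepsin B-like protease gene on the ORR list, had 187, 271, 344 and 257 CPM in WT and 410.4, 426, 503 and 553 CPM in the mutants (log2 fold change 0.84, SE 0.18, edgeR adjusted p = 0.0407), lost without WT library 2 or 4 or mutant library 1, 2, 3 or 4 (adjusted p between 0.0509 and 0.132). The glutaminyl-tRNA synthetase *qars-1* had 212, 213, 234.7 and 208 CPM and 270.0, 245, 269 and 259 CPM (log2 fold change 0.27, SE 0.06, edgeR adjusted p = 0.0435), and the methionyl-tRNA synthetase *mars-1* had 214, 196, 217 and 199 CPM and 281, 243, 255 and 264 CPM (log2 fold change 0.34, SE 0.06, edgeR adjusted p = 0.0206). The former was lost without WT library 1, 2 or 4 or mutant library 1, 3 or 4 (adjusted p between 0.0863 and 0.154) and the latter without WT library 2 or 4 or mutant library 3 or 4 (adjusted p between 0.0535 and 0.0842). Of 31 tested aminoacyl-tRNA synthetases, a list made after values were seen, these 2 were higher and 0 lower, 0 to 2 were higher when 1 library was left out, and the median was -0.01.

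Of the 171 genes above a log2 fold change of 2, 64 were on neither list, and the 6 with the largest changes had hardly a read in WT. Of these, *B0507.15*, *B0507.17*, *K07C6.15* and *ZC239.2* are annotated as pseudogenes. Pseudogenes made up 6.43% of all genes called higher and 3.43% of all genes tested. *B0507.15* (WBGene00202499, chromosome V, 8752055 to 8753066) had 0 reads in all 4 WT libraries and 4.61, 5.67, 5.07 and 3.70 CPM in the mutants, at least 139-fold higher against a floor of 3 reads over the WT group (edgeR adjusted p = 0.000429). Its annotated neighbor *B0507.17* had 1 read in WT, in library 4, and 5.95, 6.47, 6.50 and 8.72 CPM in the mutants (edgeR adjusted p = 1.47e-05). Both were high in every mutant library. *K07C6.15*, *ZC239.2* and *T26E4.9* also had 0 reads in WT, with 1.88, 3.17, 2.98 and 2.79 CPM, 0.859, 0.759, 1.16 and 1.51 CPM and 2.005, 0.625, 1.43 and 1.23 CPM in the mutants, which is at least 77.7-fold, 31.4-fold and 40.7-fold higher. *sepa-1*, which encodes a protein that carries P granule components to autophagosomes in embryos, was among them. It had 0 reads in WT and 1.78, 1.92, 1.35 and 1.75 CPM in the mutants (edgeR adjusted p = 0.000943), which is at least 49.9-fold higher than 3 reads over the WT libraries would be. The floor covers counting error only. The call of *T26E4.9* (edgeR adjusted p = 0.0111) was lost without mutant library 3 (adjusted p = 0.0509), and the other 5 held without any 1 library.

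Among the lowered genes, *acs-2* stood out by size and expression. It encodes an acyl-CoA synthetase that prepares fatty acids for oxidation in mitochondria (WBGene00009221, chromosome V, 15567394 to 15569897). Its level was 70.7, 57.8, 79.0 and 35.6 CPM in the WT libraries and 4.52, 4.06, 3.41 and 7.60 CPM in the mutant libraries, so the highest mutant library was far under the lowest WT library (log2 fold change -3.63, SE 0.33, edgeR adjusted p = 0.000433). WT library 4 and mutant library 4 were the closest pair. The call held without any 1 library and under the block (edgeR adjusted p = 0.00103).

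A further 11 genes fell beyond -2. Of them 4 lie together on chromosome II, between 1004616 and 1018100 in the WBcel235 annotation, namely *F45D11.14*, *F45D11.15*, *F45D11.16* and the annotated pseudogene *F45D11.4*. The sources used here do not say how a read matching more than 1 of these genes was counted. Their levels in WT were 4.89, 2.13, 1.88 and 2.73 CPM, 5.40, 3.43, 2.20 and 3.98 CPM, 16.3, 6.17, 5.49 and 8.39 CPM and 4.75, 1.79, 1.08 and 1.77 CPM. In the mutants they were 0.477, 0.446, 0.271 and 0.557 CPM, 0.477, 0.491, 0.232 and 0.876 CPM, 0.859, 1.116, 0.464 and 1.91 CPM and 0.541, 0.223, 0.232 and 0.478 CPM. All 4 were highest in WT library 1 and under 2 CPM in every mutant library. Their log2 fold changes were -2.69, -2.83, -3.05 and -2.60, with edgeR adjusted p-values of 0.00556, 0.00703, 0.0122 and 0.0369, and the last was lost without WT library 2 or 4 or mutant library 1, 2, 3 or 4 (adjusted p between 0.0585 and 0.132). Another, *F26A1.8*, was even across WT with 4.75, 5.60, 5.49 and 5.71 CPM and had 0.859, 1.16, 1.66 and 0.995 CPM in the mutants (log2 fold change -2.20, SE 0.22, edgeR adjusted p = 0.000877).

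The 3 ORR genes beyond -2 varied more within WT than *F26A1.8* did. *lact-6*, named for a lactamase domain, had 10.6, 1.87, 11.1 and 7.40 CPM in WT and 1.02, 0.0892, 0.774 and 0.398 CPM in the mutants (log2 fold change -3.70, SE 0.71, edgeR adjusted p = 0.0266), with library 2 lowest in both genotypes. *dod-3*, known as a gene downstream of the insulin pathway factor DAF-16, had 42.6, 17.2, 45.1 and 25.96 CPM and 11.6, 4.55, 5.92 and 3.18 CPM (log2 fold change -2.349, SE 0.46, edgeR adjusted p = 0.0283). The lectin *clec-70* had 1.80, 1.90, 3.69 and 5.15 CPM and 0.605, 0.357, 0.348 and 0.955 CPM (log2 fold change -2.46, SE 0.46, edgeR adjusted p = 0.0247). The fourth lowered ORR gene, *T16G1.7*, had 72.8, 37.6, 97.0 and 63.1 CPM in WT and 26.7, 12.05, 31.2 and 16.2 CPM in the mutants (log2 fold change -1.64, SE 0.36, edgeR adjusted p = 0.0484). Each call was lost when certain libraries were left out. *lact-6* was lost without WT library 1, 3 or 4 or mutant library 3 or 4 (adjusted p between 0.0640 and 0.0911), *dod-3* without WT library 1, 3 or 4 or mutant library 2, 3 or 4 (adjusted p between 0.0601 and 0.110), *clec-70* without WT library 3 or 4 or mutant library 1, 2 or 3 (adjusted p between 0.0583 and 0.0927) and *T16G1.7* without WT library 1, 3 or 4 or mutant library 1, 2, 3 or 4 (adjusted p between 0.0654 and 0.145). In limma-voom *lact-6* (adjusted p = 0.0825) and *T16G1.7* (0.0555) were not called. Under the block, which takes out what same-numbered libraries share, their edgeR adjusted p-values were 5.22e-05, 0.000948, 0.00314 and 5.98e-05. The other genes beyond -2 were *clec-247*, *dct-7* and *R10D12.1*, the latter at 11.8, 6.21, 7.98 and 4.50 CPM in WT and 2.45, 1.47, 1.39 and 1.19 CPM in the mutants (log2 fold change -2.20, SE 0.35, edgeR adjusted p = 0.0109), and lost without mutant library 3 (adjusted p = 0.0520). *dct-7* had 3.02, 1.18, 1.202 and 1.25 CPM and 0.382, 0.178, 0.464 and 0.199 CPM (log2 fold change -2.36, SE 0.45, edgeR adjusted p = 0.0252), lost without WT library 3 or 4 or mutant library 1, 2, 3 or 4 (adjusted p between 0.0505 and 0.0754).

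Some genes that draw on stored fat were lower in the mutants. Of 13 tested genes of lipolysis and the glyoxylate cycle, a list made after values were seen, 3 fell and 0 rose, 5 and 1 with the block, with a median of -0.31. *atgl-1*, the lipase that starts the breakdown of triglycerides in fat droplets, had 78.7, 74.9, 98.3 and 61.3 CPM in WT and 42.2, 31.7, 33.6 and 37.9 CPM in the mutants (log2 fold change -1.102, SE 0.15, edgeR adjusted p = 0.00421). Its WT libraries, highest in number 3, all lay above the mutants. *icl-1*, the glyoxylate cycle enzyme that lets nematodes build sugar from fat, had 1652, 1299.7, 1745 and 1237 CPM and 682, 837, 740.3 and 422 CPM (log2 fold change -1.14, SE 0.22, edgeR adjusted p = 0.0247), lost without WT library 1, 2 or 3 or mutant library 1 or 3 (adjusted p between 0.0550 and 0.0791). On the wider list of fat synthesis and oxidation genes, which shares *acs-2* and *icl-1* with the first, 4 of 93 tested fell and 0 rose, 16 and 2 with the block, and the median was -0.13. The count of lowered members was 1 to 6 when 1 library was left out and, with the block, 3, 18, 2 and 20 without pair 1, 2, 3 or 4. Those lower without the block include *acs-12*, a further acyl-CoA synthetase gene, at 27.1, 28.3, 27.5 and 28.2 CPM in WT and 19.4, 21.2, 18.2 and 17.0 CPM in the mutants (log2 fold change -0.55, SE 0.09, edgeR adjusted p = 0.0105), lost without mutant library 3 (adjusted p = 0.0501), and *lbp-5*, a fatty acid binding protein, from 43.3 to 46.6 CPM to 28.9 to 38.6 CPM (log2 fold change -0.44, SE 0.10, edgeR adjusted p = 0.0481), lost without WT library 1, 2, 3 or 4 or mutant library 1, 3 or 4 (adjusted p between 0.0864 and 0.163). *cpt-1*, the carnitine transferase that brings fatty acids into mitochondria, had 224, 188, 199 and 203 CPM and 168, 175, 161 and 144 CPM and missed the threshold without the block (edgeR adjusted p = 0.0908, and 0.0410 with it).

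A pair of genes for bHLH factors of the Myc and Max type, picked after their values were seen, were lower. *mxl-3*, a repressor of lysosomal lipase genes when food is plentiful, had 224, 319, 283 and 305 CPM in WT and 164, 158, 132 and 184 CPM in the mutants (log2 fold change -0.82, SE 0.14, edgeR adjusted p = 0.0124), lost without WT library 3 (adjusted p = 0.0505). *mml-1* had 79.0, 81.8, 85.2 and 84.2 CPM and 58.2, 57.2, 54.4 and 62.1 CPM (log2 fold change -0.51, SE 0.06, edgeR adjusted p = 0.00156). The alcohol dehydrogenase gene *adh-1* had 36.6, 50.2, 61.0 and 38.2 CPM in WT and 10.7, 17.7, 16.4 and 14.3 CPM in the mutants (log2 fold change -1.65, SE 0.21, edgeR adjusted p = 0.00313), with its lowest WT library more than 2 times its highest mutant library. *gst-4*, a glutathione transferase that reports on oxidative stress, had 39.6, 30.8, 40.2 and 29.4 CPM and 16.3, 18.1, 18.5 and 11.6 CPM (log2 fold change -1.11, SE 0.17, edgeR adjusted p = 0.00945). These 4 genes were named after their values were seen or, for *gst-4*, through its list, and *mml-1*, *adh-1* and *gst-4* held without any 1 library.

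Some enzymes and transporters of sugar and amino acid metabolism, picked after values were seen, fell as well. No list of this class was counted. *asns-2*, an asparagine synthetase, had 333, 279, 313 and 295 CPM in WT and 128, 156, 114 and 118 CPM in the mutants (log2 fold change -1.24, SE 0.11, edgeR adjusted p = 0.000470). *gln-3*, a glutamine synthetase, had 654, 627, 749.8 and 622 CPM and 380.1, 408, 376 and 381 CPM (log2 fold change -0.77, SE 0.07, edgeR adjusted p = 0.000470), and the mutant libraries differed little among themselves. *metr-1*, the methionine synthase that needs vitamin B12, had 1420.3, 1222, 1329 and 1469 CPM in WT and 869.7, 887, 747 and 963 CPM in the mutants (log2 fold change -0.65, SE 0.09, edgeR adjusted p = 0.00598). The sugar transporter *swt-1* had 30.4, 24.2, 27.4 and 19.9 CPM and 11.5, 7.76, 11.9 and 9.67 CPM (log2 fold change -1.32, SE 0.17, edgeR adjusted p = 0.00370), and *pgph-3*, a phosphoglycolate phosphatase homolog, 180.0, 143, 149 and 174 CPM and 61.3, 82.8, 68.0 and 63.9 CPM (log2 fold change -1.22, SE 0.12, edgeR adjusted p = 0.000719). These 5 genes were called without any 1 library. *tps-2*, a synthase of the storage sugar trehalose, had 216, 174, 192 and 177 CPM in WT and 131, 141, 131 and 119 CPM in the mutants (log2 fold change -0.53, SE 0.09, edgeR adjusted p = 0.0117), lost without mutant library 3 (adjusted p = 0.0509). Pyruvate carboxylase *pyc-1* had 1011, 959.9, 1081 and 966 CPM and 762, 824, 762 and 665 CPM (log2 fold change -0.41, SE 0.08, edgeR adjusted p = 0.0283), lost without WT library 1, 2, 3 or 4 or mutant library 1 or 3 (adjusted p between 0.0588 and 0.0997). The opposite direction was seen in *pck-1*, a phosphoenolpyruvate carboxykinase, at 128, 145, 139 and 128 CPM in WT and 165, 212, 191 and 196 CPM in the mutants (log2 fold change 0.50, SE 0.09, edgeR adjusted p = 0.0146), lost without WT library 3 or 4 or mutant library 3 (adjusted p between 0.0545 and 0.0613).

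**Figure D3:**
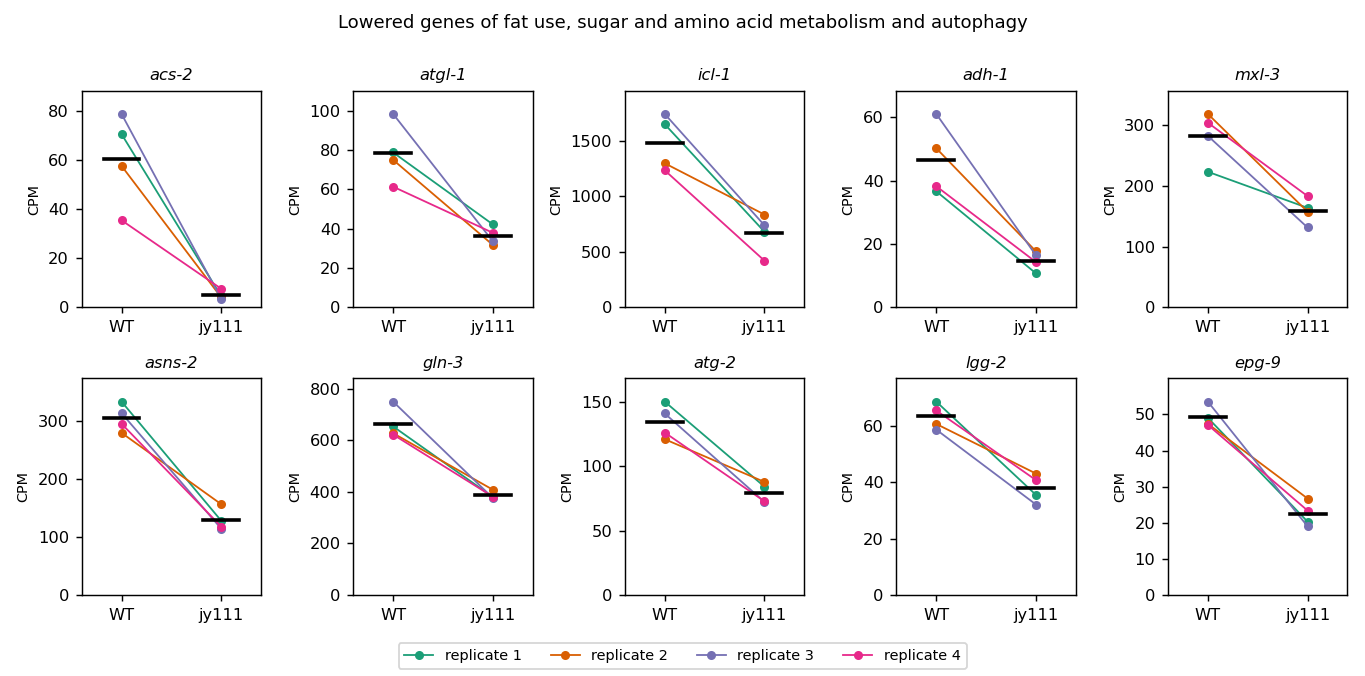
Levels in CPM, on axes that start at 0, of 10 lowered genes of fat use, metabolism and autophagy in the WT and mutant (jy111) libraries, with lines joining libraries of the same replicate number and black bars at the group means. All 10 fall in every pair, as did all 207 genes called lower. The steepest fall is that of *acs-2*, whose mutant libraries are between 3.41 and 7.60 CPM.

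The one-carbon cycle around *metr-1* feeds methyl groups and nucleotide synthesis, and the cobalamin pathway supplies it. Of 24 tested genes on a list made after values were seen, 2 (8.33%) fell and 1 (4.17%) rose. With the block these counts were 8 and 2, and the median was -0.17. Over all genes tested 1.41% fell and 2.33% rose, 4.61% and 5.17% with the block. Without 1 library 1 to 5 fell and 0 to 1 rose. Beside *metr-1*, *mmaa-1* fell from 151, 143, 163 and 149 CPM to 122, 123, 119 and 115 CPM (log2 fold change -0.33, SE 0.06, edgeR adjusted p = 0.0141), lost without WT library 4 or mutant library 3 (adjusted p between 0.0529 and 0.0626). *mmab-1*, which prepares cobalamin for the propionate pathway, rose from 31.2, 29.4, 31.6 and 31.9 CPM to 37.5, 37.3, 40.8 and 39.6 CPM (log2 fold change 0.33, SE 0.06, edgeR adjusted p = 0.0144), lost without WT library 2 or 3 or mutant library 3 (adjusted p between 0.0512 and 0.0648). *mtrr-1*, the reductase that keeps methionine synthase active, had 558, 733, 707 and 748 CPM in WT and 395, 649, 475 and 570.5 CPM in the mutants and was called only with the block (log2 fold change -0.41 and edgeR adjusted p = 0.0176 with it, 0.329 without).

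Lowered genes came from other classes too. The chloride channel gene *clh-2* had 27.5, 35.1, 34.3 and 36.5 CPM in WT and 8.62, 13.6, 8.13 and 11.3 CPM in the mutants (log2 fold change -1.68, SE 0.18, edgeR adjusted p = 0.00137), and *T28B8.1* had 46.9, 27.7, 42.5 and 29.9 CPM and 11.6, 8.12, 8.32 and 9.11 CPM (log2 fold change -1.97, SE 0.20, edgeR adjusted p = 0.000936). *tts-1*, a long noncoding RNA that associates with ribosomes, had 35.0, 33.9, 23.97 and 33.5 CPM in WT and 11.8, 12.4, 7.12 and 15.7 CPM in the mutants (log2 fold change -1.43, SE 0.23, edgeR adjusted p = 0.0123), with library 3 lowest in both genotypes. The Sno/Ski factor *daf-5*, which acts in dauer TGF-β signaling, had 90.8, 90.6, 101 and 92.5 CPM and 57.3, 61.5, 53.1 and 72.9 CPM (log2 fold change -0.61, SE 0.10, edgeR adjusted p = 0.00946), lost without WT library 3 (adjusted p = 0.0556). Of 89 tested *gst* and *ugt* genes of detoxification 2 fell and 1 rose, 14 and 5 with the block. Of 52 cytochrome P450 (*cyp*) genes 1 fell and 0 rose, 4 and 0 with the block. Without the block the lowered shares of these 2 lists, 2.25% and 1.92%, were near the 1.41% over all genes tested. With the block 4.61% of all genes tested were lower. The lowered P450 was *cyp-14A2*, at 20.6, 20.4, 26.2 and 24.2 CPM in WT and 11.9, 15.4, 13.7 and 12.3 CPM in the mutants (log2 fold change -0.78, SE 0.12, edgeR adjusted p = 0.00945). *clh-2*, *T28B8.1*, *tts-1* and *cyp-14A2* held without any 1 library, but *cyp-14A2* was not called in 1 fit over all 16 libraries (edgeR adjusted p = 0.327, and 0.212 with the block).

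Several genes that form autophagosomes fell, while 3 genes of selective autophagy rose. Of 31 tested autophagy genes, a list made after values were seen, 6 fell and 3 rose, 8 and 5 with the block, and the median was -0.09. Against the double mutants 0 of them were lower and 5 higher in *pals-25(jy111)* mutants, with a median of 0.14. *epg-9*, the ATG101 homolog in the complex that starts autophagosomes, had 49.1, 47.4, 53.6 and 47.1 CPM in WT and 20.3, 26.7, 19.04 and 23.4 CPM in the mutants (log2 fold change -1.14, SE 0.11, edgeR adjusted p = 0.000731). Its partner *atg-13* had 31.4, 28.8, 30.1 and 29.6 CPM and 18.7, 21.7, 21.2 and 21.2 CPM (log2 fold change -0.53, SE 0.07, edgeR adjusted p = 0.00369). *atg-2*, which supplies lipid to the growing membrane, had 150.0, 121, 141 and 126 CPM in WT and 84.1, 87.7, 72.2 and 72.7 CPM in the mutants (log2 fold change -0.76, SE 0.10, edgeR adjusted p = 0.00369), and *atg-9*, the membrane protein it works with, 48.3, 44.1, 52.3 and 46.7 CPM and 34.01, 37.1, 30.7 and 33.7 CPM (log2 fold change -0.49, SE 0.08, edgeR adjusted p = 0.0109). *lgg-2*, an LC3 homolog attached to autophagosomes, had 68.7, 60.8, 58.8 and 65.5 CPM and 35.6, 43.2, 32.2 and 40.8 CPM (log2 fold change -0.74, SE 0.10, edgeR adjusted p = 0.00571). In all 5 genes the mutant libraries lay under every WT library, as in all 207 lowered genes, and these 5 calls held without any 1 library. The sixth, *epg-7*, a scaffold for the degradation of protein aggregates, had 56.9 to 70.1 CPM and 47.0 to 53.7 CPM and lay near the threshold (edgeR adjusted p = 0.04996), lost without WT library 2, 3 or 4 or mutant library 1, 3 or 4 (adjusted p between 0.111 and 0.179). Those higher were *sepa-1*, described above, and a pair of genes that mark paternal mitochondria for removal, *allo-1* and the kinase *ikke-1*. *allo-1* had 49.6, 53.8, 53.6 and 48.1 CPM in WT and 62.0, 75.5, 69.5 and 76.2 CPM in the mutants (log2 fold change 0.47, SE 0.08, edgeR adjusted p = 0.0138), lost without WT library 3 or 4 (adjusted p between 0.0556 and 0.0572), and *ikke-1* 58.6, 49.5, 48.1 and 48.5 CPM and 68.1, 69.4, 63.4 and 70.6 CPM (log2 fold change 0.41, SE 0.08, edgeR adjusted p = 0.0244), lost without WT library 2, 3 or 4 or mutant library 1, 2 or 4 (adjusted p between 0.0545 and 0.0923).

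Nuclear hormone receptors, a family much expanded in nematodes, leaned downward. Of 180 tested *nhr* genes 12 (6.67%) fell and 4 (2.22%) rose, 23 and 11 with the block. Over all genes tested 1.41% fell and 2.33% rose, 4.61% and 5.17% with the block. The median was -0.16 against 0.02 over all genes tested, and 129 of the 180 had a negative log2 fold change. Within pairs 1 to 4 the median difference was -0.31, -0.08, -0.23 and -0.03. Against the double mutants 2 members were lower and 4 higher, with a median of -0.12. The count of lowered members ran from 5 to 10 when 1 library was left out. *nhr-117* had 12.3, 13.2, 14.7 and 13.5 CPM in WT and 4.80, 5.85, 6.15 and 7.12 CPM in the mutants (log2 fold change -1.17, SE 0.13, edgeR adjusted p = 0.00167), and *nhr-42* had 21.8, 20.6, 24.4 and 17.999 CPM and 11.1, 12.4, 9.79 and 10.7 CPM (log2 fold change -0.94, SE 0.12, edgeR adjusted p = 0.00305). *nhr-10*, which acts in the breakdown of propionate, had 29.0, 30.1, 31.2 and 30.9 CPM in WT and 18.5, 22.7, 19.8 and 21.6 CPM in the mutants (log2 fold change -0.55, SE 0.08, edgeR adjusted p = 0.00660). *nhr-105* and *nhr-21* fell by similar amounts, with log2 fold changes of -0.88 and -0.87 (edgeR adjusted p = 0.00751 and 0.00965). Against the family, *nhr-118* rose from 0 to 0.144 CPM to 1.34 to 1.78 CPM (log2 fold change 4.94, SE 0.49, edgeR adjusted p = 0.000734) and *nhr-15* from 2.49 to 2.88 CPM to 4.65 to 6.29 CPM (log2 fold change 1.03, SE 0.15, edgeR adjusted p = 0.00599). These 7 calls held without any 1 library. The summed level of all *nhr* genes overlapped between genotypes, at 2586 to 3111 CPM in WT and 2384 to 3246 CPM in the mutants.

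Small families of secreted proteins were lower in part. Of 45 tested transthyretin-related *ttr* genes 4 fell and 0 rose, 10 and 0 with the block, and those that fell were 1 to 6 when 1 library was left out. *ttr-51* had 78.4, 84.9, 74.7 and 84.0 CPM in WT and 48.9, 59.2, 49.6 and 54.7 CPM in the mutants (log2 fold change -0.60, SE 0.08, edgeR adjusted p = 0.00520), and *ttr-45* had 61.8, 55.1, 59.1 and 60.2 CPM and 43.9, 45.3, 40.6 and 36.3 CPM (log2 fold change -0.50, SE 0.08, edgeR adjusted p = 0.0135), the latter lost without WT library 4 or mutant library 3 (adjusted p between 0.0549 and 0.0604). Of 21 tested antimicrobial peptide genes of the *nlp*, *cnc* and *fip* types, made mainly by the epidermis, 1 fell and 0 rose. This was *fip-2*, at 12.02, 10.2, 9.18 and 9.43 CPM in WT and 4.58, 3.08, 3.60 and 4.58 CPM in the mutants (log2 fold change -1.36, SE 0.17, edgeR adjusted p = 0.00286). With the block 7 were lower, among them *nlp-30*, which fungal infection induces, at 34.7, 35.4, 43.3 and 29.5 CPM and 20.5, 22.1, 28.4 and 10.7 CPM (log2 fold change -0.86 and edgeR adjusted p = 0.0127 with the block, 0.202 without it), and the caenacin *cnc-4* (-1.14, 0.0404 and 0.107). The 7 became 1, 3, 3 and 10 without pair 1, 2, 3 or 4. The median over the list was -0.40, and the summed level was 682 to 716 CPM in WT and 547 to 636 CPM in the mutants.

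**Figure D4:**
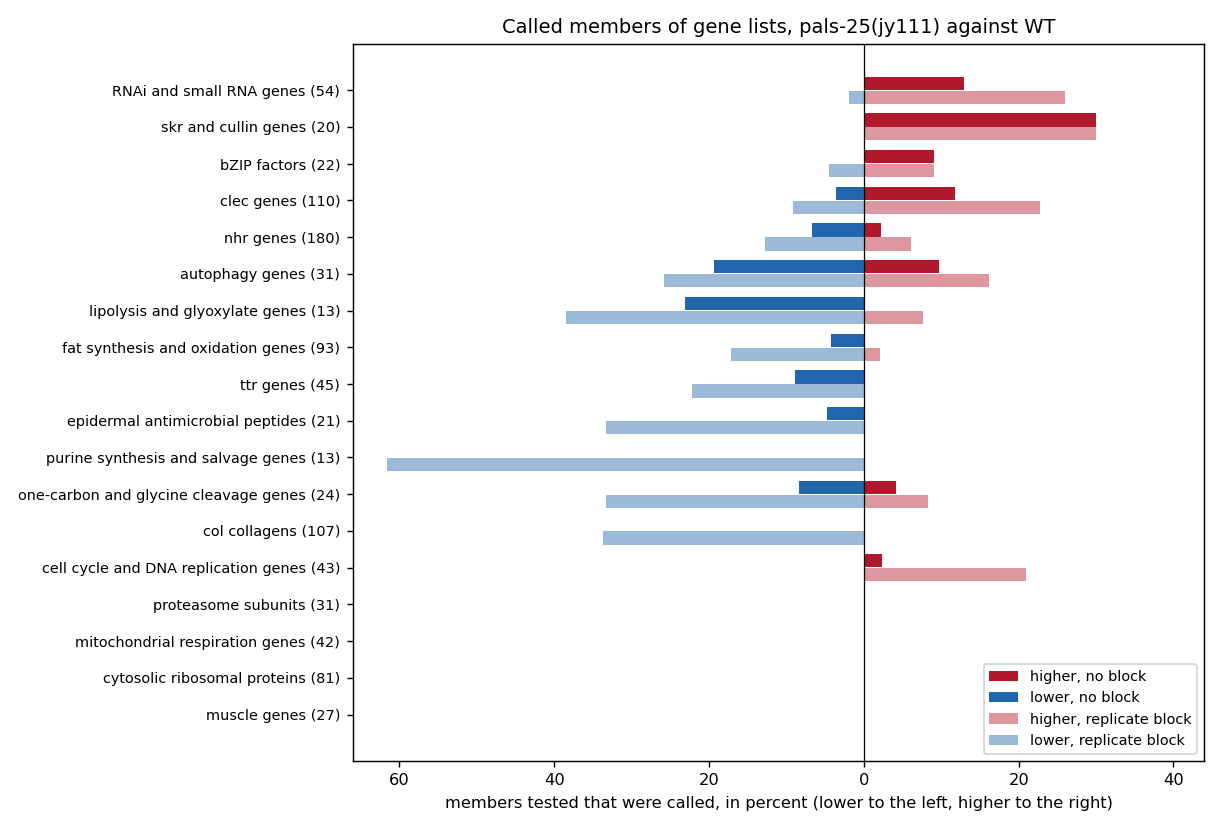
For 18 gene lists, with the number of members tested in brackets, the bars give the percentage of tested members called higher (red, to the right) or lower (blue, to the left) without the replicate block (dark) and with it (pale). Cullin ligase and RNA silencing genes extend mainly to the right and lipolysis genes mainly to the left. Autophagy genes have bars on both sides, longer to the left, and collagen and purine genes show bars only with the block. The lists of lipolysis, autophagy, purine and one-carbon genes were made after values were seen.

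Some classes had few or no calls in edgeR until same-numbered libraries were paired. Cuticle collagens are an example. At the L4 stage these genes rise and fall with the molting cycle. Of 107 tested *col* genes 0 were lower without the block (16 at an unadjusted p under 0.05 in edgeR, 7 by DESeq2 and 0 by limma-voom) and 36 with it, with 98 of 107 log2 fold changes negative. *col-12* had 659, 176, 189 and 165 CPM in WT and 268, 77.2, 97.0 and 90.7 CPM in the mutants. Library 1 was the highest in both genotypes, so the groups overlapped although every pair fell (log2 fold change -1.08 and edgeR adjusted p = 0.000273 with the block, 0.455 without). *col-154* showed the same layout, with 411, 125, 148 and 123 CPM and 163, 51.9, 71.5 and 59.7 CPM (-1.17, 7.45e-05 and 0.343). The study reports the opposite direction for *col-12*, higher than in WT, in its other line with the same stop codon, sequenced by another laboratory. The count of lowered collagens moved from 8 without pair 1 to 19 without pair 2, 13 without pair 3 and 75 without pair 4, and was 9 in a blocked fit over all 16 libraries. Of 21 tested body-shape collagens, 0 were lower and 0 higher in edgeR with or without the block, and likewise 0 and 0 at an unadjusted p under 0.05. DESeq2 called 0 and 0. Blocked limma-voom called 0 and 1, and the blocked edgeR fit without pair 4 called 1 lower and 5 higher.

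Purine genes also had more calls with the block. Of 13 tested genes of purine synthesis and salvage, a list made after values were seen, 0 were lower without the block (8 at an unadjusted p under 0.05 in edgeR, 2 by DESeq2) and 8 with it, and the median was -0.29. *pfas-1*, an enzyme of the synthesis pathway, had 476, 683, 628 and 622 CPM in WT and 381, 591, 462 and 418 CPM in the mutants (log2 fold change -0.38 and edgeR adjusted p = 0.0219 with the block, 0.348 without). *atic-1*, which completes the ring, had 479, 629, 571 and 606 CPM and 359.8, 518, 394 and 382 CPM (-0.47, 0.0112 and 0.144). Library 1 was the lowest WT library for both. The count was 0 without pair 1, 6 without pair 2, 0 without pair 3, 10 without pair 4 and 1 in the blocked fit over 16 libraries. Some genes of DNA replication were higher with the block. Of 43 tested cell cycle and replication genes 1 rose without the block and 9 with it, and the median was 0.21. Subunits of the MCM helicase made up most, such as *mcm-2* with 47.3, 49.7, 39.8 and 47.5 CPM in WT and 59.1, 64.0, 54.3 and 78.5 CPM in the mutants (0.47, 0.00969 and 0.0908). This count was 1 without pair 1, 2 without pair 2, 1 without pair 3, 10 without pair 4 and 2 over 16 libraries.

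Stage-dependent genes moved with the replicate number beside these classes. The summed level of 83 sperm genes, which are switched on late in L4, was 2039, 694, 1147 and 1198 CPM in WT and 2259.9, 661, 1355 and 841 CPM in the mutants, highest in library 1 and lowest in library 2 of both genotypes. For 156 *col* genes the sums were 49894, 28116, 35994 and 31499 CPM and 40429.7, 23176, 29706 and 19459 CPM. The pair with number 4 had the largest drop in both. Of 76 tested sperm genes 0 were higher and 0 lower, 2 and 0 with the block and 0 and 0 at an unadjusted p under 0.05 in edgeR. Sums of 78 oogenesis and germline genes were 3532, 2356, 2676 and 2563 CPM and 3966, 2234, 2996 and 2551 CPM. The part of such stage differences in the blocked calls was not tested.

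**Figure D5:**
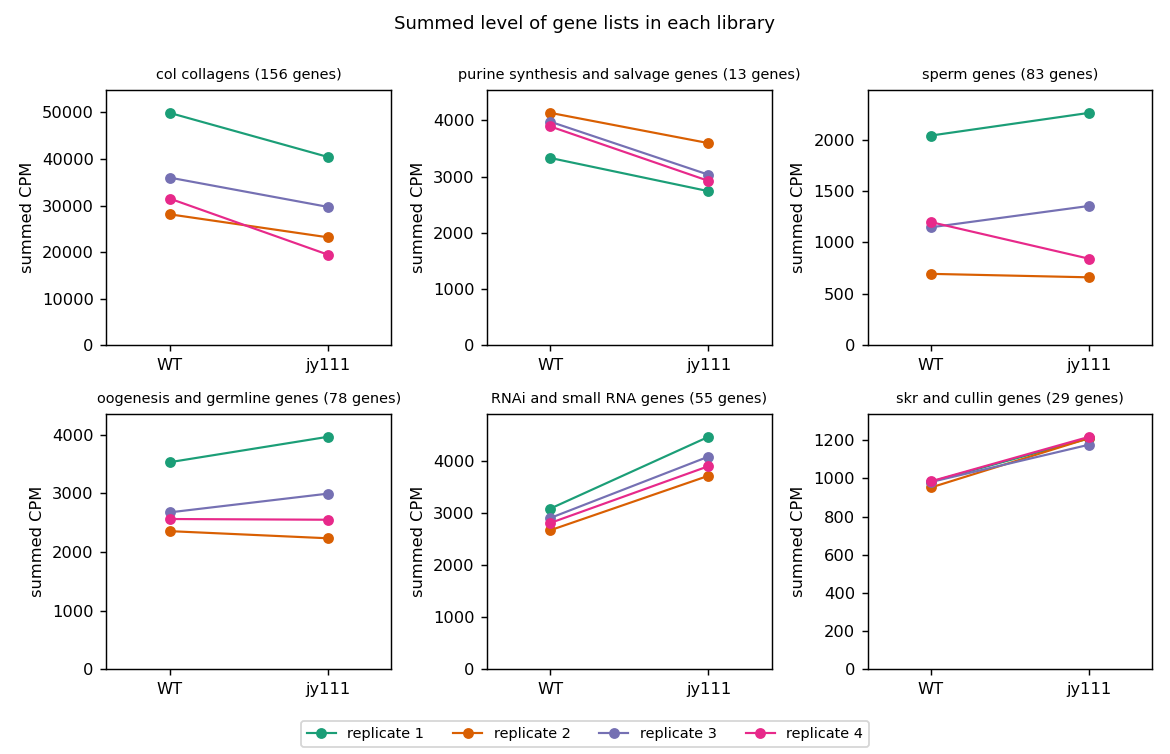
Summed levels of all members of 6 gene lists in CPM, on axes that start at 0, in the 4 WT and 4 mutant (jy111) libraries, with lines joining the same replicate number. Collagen, sperm and germline sums differ more between replicate numbers than between genotypes, with library 1 highest, while RNA silencing and cullin ligase sums rise in every pair without overlap.

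Another 4 libraries came from animals carrying both *jy3* and *jy9*, written *pals-22(jy3) pals-25(jy9)*, in which loss-of-function alleles affect both genes. This comparison uses the same mutant libraries as the first, so the values stand side by side and are not independent. Against the double mutants 414 genes (2.82%) were higher and 144 (0.982%) lower in *pals-25(jy111)* mutants. *acs-2* had 45.9, 39.8, 29.2 and 112 CPM in the double mutants, and its log2 fold change against them was -3.49 (edgeR adjusted p = 0.00616). That of *atgl-1*, with 57.7, 56.5, 57.6 and 61.2 CPM there, was -0.63 (edgeR adjusted p = 0.0104), and that of *adh-1*, with 46.9, 36.7, 45.3 and 20.8 CPM, was -1.29 (edgeR adjusted p = 0.0395). *mxl-3*, at 294, 243, 266 and 219.7 CPM, gave -0.63 (edgeR adjusted p = 0.0325). These 4 genes were lower in *pals-25(jy111)* mutants than in WT and than in the double mutants.

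Other lowered genes were not called against the double mutants. *icl-1* had 746, 519, 637 and 578 CPM there and a log2 fold change of 0.17 (edgeR adjusted p = 0.768). *asns-2* had 159, 105, 130.3 and 111.4 CPM and 0.08 (edgeR adjusted p = 0.853), *tps-2* 122, 103, 115 and 125 CPM and 0.22 (edgeR adjusted p = 0.210), and *atg-2* 72.4, 55.4, 64.5 and 90.7 CPM and 0.21 (edgeR adjusted p = 0.522). For these 4 genes the double mutant libraries overlapped those of *pals-25(jy111)* mutants and lay below every WT library. Double mutant library 4 stood apart from its group, with a *col-12* level of 1299 CPM against 74.0 to 159 CPM in the others, and its part in these values was not tested. Among genes raised over WT, *rde-1* had 51.4, 51.4, 47.9 and 55.9 CPM in the double mutants and a log2 fold change of 0.82 (edgeR adjusted p = 0.000529), *sid-5* 5.82, 7.18, 6.09 and 5.92 CPM and 1.60 (edgeR adjusted p = 6.25e-05), *rcs-1* 50.2, 64.3, 61.1 and 69.6 CPM and 1.41 (edgeR adjusted p = 0.000176), and *zip-1* 19.2, 21.7, 24.3 and 24.5 CPM and 1.63 (edgeR adjusted p = 2.55e-05). Others raised over WT were not called, such as *cpr-1* (-0.09, edgeR adjusted p = 0.878), *clec-41* (0.20, 0.513), *ced-1* (0.47, 0.103) and *allo-1* (0.42, 0.106).

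Several large classes had no calls in edgeR with or without the block, namely 81 cytosolic ribosomal proteins, 42 genes of mitochondrial respiration, 21 V-ATPase genes and 27 muscle genes. Their median log2 fold changes were -0.07, -0.10, -0.05 and 0.01. At an unadjusted p under 0.05 the higher and lower members numbered 0 and 1, 0 and 4, 0 and 0, and 0 and 2, and DESeq2 called 0 and 0, 0 and 0, 0 and 0, and 0 and 1. Markers of the tissues that whole animals hold were present, with 30 of 37 intestine, 28 of 29 epidermis and 19 of 19 neuron markers passing the filter. Intestine markers had 2 higher and 1 lower of 30 tested, namely *asp-17* and *cpr-1* higher and *asp-12* lower, and 2 and 5 with the block. Without 1 library 0 to 1 were higher and 0 to 1 lower. *asp-17* (log2 fold change 0.94, SE 0.19, edgeR adjusted p = 0.0335) was lost without WT library 1, 2, 3 or 4 or mutant library 1, 3 or 4 (adjusted p between 0.0587 and 0.126) and *asp-12* (log2 fold change -1.16, SE 0.24, edgeR adjusted p = 0.0350) without WT library 2, 3 or 4 or mutant library 1, 2 or 3 (adjusted p between 0.0581 and 0.116). Their summed level was 21668 to 28909.6 CPM in WT and 18841 to 30375 CPM in the mutants, with library 1 lowest in both. Epidermis markers had 0 higher and 0 lower of 28 tested (unadjusted 1 and 1, DESeq2 0 and 0, with the block 3 and 1), and neuron markers 0 higher and 0 lower of 19 tested (unadjusted 0 and 1, DESeq2 0 and 0, with the block 0 and 1). The summed levels of both lists overlapped between the genotypes, at 5115 to 6332 CPM against 5339 to 6311 CPM and 791 to 900.5 CPM against 674 to 901 CPM.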

How the data were processed

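The labels gave each library's genotype and its replicate number. Libraries were made with a stranded mRNA kit and sequenced in pairs on a NovaSeq. The authors used Rsubread for alignment to WS235 and featureCounts for gene counting, and the deposited table holds whole-number counts for 46904 gene IDs, not normalized. The submitters' processing notes also name limma, with which the authors tested genes above 0.5 CPM by limma-voom. Not given in the sources used here are versions, the strand setting and how multiply matching reads were treated, which leaves counts of near-identical genes uncertain. Depth, 14028579 to 30574379 counts per library, limits the precision of low values. Gene symbols came from tables of gene names and positions from the Ensembl annotation of WBcel235, which together named 45978 of the IDs.

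From the deposited counts, edgeR 4.0.16 (R 4.3.3) was fitted to the 8 libraries with TMM factors, with robust estimation off. Benjamini-Hochberg adjustment covered the 14671 genes that reached 0.5 CPM in 4 or more of the 8 libraries. The SE is the absolute log2 fold change divided by the square root of the F statistic. Printed CPM use TMM factors over all 16 libraries. The comparison with the double mutants was fitted in the same way to its own 8 libraries, over the same genes. The scripts were tested on simulated data. Alternatives used DESeq2 1.42.0, limma 3.58.1, other scalings, filters and depth, a fit over all 16 libraries, the replicate block and leaving out libraries or pairs.

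Replicate numbers recur across genotypes. Deviations from the group means of same-numbered libraries correlated across genes at 0.83, 0.68, 0.12 and 0.30 for numbers 1 to 4. All lay above 0.1, so the numbers were taken as pairing the libraries. Mutant library 4 correlated more with WT library 2 (0.59) than with WT library 4. Mutant library 3 did so with WT library 1 (0.298), and WT library 3 with mutant library 2 (0.19). The pairing is therefore less clear for numbers 3 and 4 than for 1 and 2. This pairing comes from the data and not from the labels.

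The members and gene lists were chosen with earlier results of these data known. The rule for named genes took *pals-25* and *pals-22*, the 10 most lowered genes, the 8 most raised under a log2 fold change of 2 on neither list, the 6 best expressed raised by less than 1, the 6 most raised above 2 on neither list, the best expressed genes called only with the block, lowered IPR or ORR genes and up to 3 genes per list. Other genes were chosen after their values were seen, as were the lists of autophagy, lipolysis and glyoxylate, purine, one-carbon and aminoacyl-tRNA synthetase genes. Lists are described by counts and medians, without a set test.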

Additional observations from a re-analysis of the deposited data

Results flagged for a closer look

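A library was singled out where its gap to the nearest of the 3 others of its genotype exceeded Dixon's 95% critical share of the range of all 4, which chance gives in about 1 in 20 groups. Of 288 groups looked at, 15 (5.21%) met this.

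WT library 1 stood apart in 5 of the values. It had 659 CPM of *col-12* against 165 to 189 CPM in the other WT libraries, 411 CPM of *col-154* against 123 to 148 CPM, 3.02 CPM of *dct-7* against 1.18 to 1.25 CPM, 58.6 CPM of *ikke-1* against 48.1 to 49.5 CPM, and the lowest summed level of intestine markers, 21668 CPM against 28456 to 28910 CPM. In the mutants *col-12* was likewise highest in library 1, at 268 CPM against 77.2 to 97.0 CPM.

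WT library 3 had 49.8 CPM of *ubc-12* against 42.4 to 43.2 CPM, 15.2 CPM of *ubc-8* against 12.5 to 12.95 CPM, 23.97 CPM of *tts-1* against 33.5 to 35.0 CPM, and a summed level of proteasome subunits of 6397 CPM against 5939 to 5953 CPM. WT library 2 had the lowest summed level of *skr* and cullin genes, 952 CPM against 981 to 985 CPM, still under every mutant library. WT library 4 had 0.0433 CPM of *B0507.17*, which is 1 read, where the other WT libraries had 0.

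Among mutant libraries, number 4 had 114 CPM of *clec-41* against 89.1 to 90.0 CPM, number 2 had 408 CPM of *gln-3* against 376 to 381 CPM, and number 3 had a summed level of epidermal antimicrobial peptides of 636 CPM against 547 to 558 CPM.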

How the results depend on the processing

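No named gene changed direction while called in any alternative. In some lists the balance of calls turned, as for intestine markers, with 2 higher and 1 lower without the block and 2 and 5 with it. Of 214 named genes, 36 kept their side of the threshold in every alternative run. Beside the losses given in the report, the calls of *cpr-1*, *rde-12*, *ubc-12* and *allo-1* ended in 1 fit over all 16 libraries, those of *qars-1*, *rde-12*, *ubc-12*, *fbxl-1*, *lbp-5* and *epg-7* with no filter, and those of *skr-5*, *ins-7*, *qars-1*, *mmab-1* and *epg-7* after thinning. Counts of calls moved more. Without an alternative, 342 genes were higher and 207 lower, 171 were higher by a log2 fold change under 2 and 12 lower beyond -2. DESeq2 called 553 higher, 446 lower and 378 higher under 2. With the replicate block, edgeR called 758, 676 and 583, limma-voom 792, 698 and 619, and a blocked edgeR fit over all 16 libraries 587, 520 and 413. Limma-voom without the block, RLE scaling, filterByExpr, no filter, robust estimation, 1 fit over 16 libraries and thinning to the smallest total each stayed within 1.5 times of all 4 counts. Leaving out 1 library, or 1 pair with the block, gave 241 to 1125 higher, 81 to 1075 lower, 85 to 948 higher under 2 and 5 to 20 lower beyond -2. The highest of these counts came without pair 4. Without libraries 1 and 2 of both genotypes, an alternative chosen after seeing the data, 129, 16, 26 and 2 genes were called from 2 libraries against 2. The cause of these shifts was not tested. The block lost 1 of the calls made without it and turned none of the named genes around. Depth limits the genes with few reads, such as *skr-5* at under 1 CPM in every library.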
